A study of Mus musculus with 4 samples.

Results

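Integrins and the adhesion molecules that work beside them were followed in mouse plasmacytoid dendritic cells (pDCs), the type I interferon producing cells of the immune system. The group holds 35 genes, taken as the rows of the deposited count table whose symbol names 22 integrin subunits, 11 other surface adhesion molecules or 2 cytoplasmic activators of integrins. All 35 were found among the 27179 genes of the table. The cells came from bone marrow precursors of C57BL/6 mice, cultured for 8 days with Flt3 ligand, and every library, the BFP-negative ones included, comes from cells given imiquimod, a ligand of the receptor TLR7, at 1 µg/ml for 24 h. They were sorted with SiglecH and CD11b and divided by a blue fluorescent protein (BFP) tied to the chemokine gene Cxcl10, which gave 2 BFP-positive and 2 BFP-negative libraries. No unstimulated cells were analysed here. The comparison asks how stimulated pDCs that had switched on the Cxcl10 reporter differ from those that had not. Whether CD11b-low or CD11b-high cells were kept, and whether a library pooled animals, is not stated in the labels. A population label calls the BFP-negative samples CXCL10-positive and the series design calls them CXCL10-negative, so only the BFP part was used.

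Integrins are pairs of an alpha and a beta chain that span the plasma membrane and bind ligands on other cells or in the matrix. The beta-2 chain (Itgb2, CD18) joins the leukocyte alpha chains, among them Itgal (CD11a) in LFA-1, Itgam (CD11b) in Mac-1 and Itgax (CD11c), and the beta-7 chain joins Itga4 or Itgae in the receptors known for gut and epithelial homing. Resting integrins bind weakly, and talin and kindlin, which attach to the beta tail inside the cell, switch them to the form that binds firmly. Dendritic cells use these molecules together with selectin ligands and CD44 to leave the blood, cross vessel walls and hold on to T cells.

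The 4 libraries held 11868254 to 12570117 counts, so that 1 count equalled 0.0789 to 0.0858 CPM (TMM-scaled counts relative to the library total) and 3 counts, the upper limit behind a count of 0, equalled 0.237 to 0.257 CPM, which covers counting error only. The 35 genes took 0.368% to 0.399% of the counts of a library. Cxcl10 had 3 and 19 counts in BFP-negative replicates 1 and 2 and 149 and 154 in BFP-positive replicates 1 and 2, which checks the labels. The pDC marker Siglech was present in every library, at 611 and 615 CPM in BFP-negative and 785 and 820 CPM in BFP-positive cells. Over 11 pDC markers, 2 rose and 4 fell, with summed levels of 21453 and 25535 CPM against 17611 and 16713 CPM. Ly6d made up most of that sum, and the other 10 summed to 4164 and 4588 against 3999 and 4142 CPM. Of 11 monocyte and macrophage markers, 5 rose and 2 fell, and Mertk and C1qa had no count in any library. The summed level was 607 and 730 CPM in BFP-negative against 1219 and 1404 CPM in BFP-positive cells. Ly6c2 alone was at 299 and 379 against 777 and 897 CPM, and the other 10 summed to 308 and 351 against 443 and 507 CPM. Most of the latter sum was Cd68, at 249 and 277 against 273 and 292 CPM, which was not called. Csf1r had 3 and 0 counts in the BFP-negative and 265 and 398 in the BFP-positive libraries. Fcgr1 rose 34.6-fold, Lyz2 16.1-fold and Cd14 9.69-fold, while Apoe fell 10.6-fold and Adgre1 3.56-fold. Of 11 conventional dendritic cell markers, 3 rose and 1 fell, with sums of 1681 and 1621 CPM against 1305 and 1446 CPM. Most of this was Cd8a, which fell from 1495 and 1428 to 1043 and 1107 CPM, and the other 10 summed to 186 and 193 against 263 and 339 CPM. Markers of B cells, of which 2 of 6 fell, summed to at most 123 CPM in a library, those of T and NK cells to 10.9 CPM and those of neutrophils to 23.3 CPM. Markers of mast cells and basophils summed to 52.5 CPM in BFP-negative replicate 2 and to at most 8.64 CPM elsewhere, and the stromal genes Col1a1, Col1a2 and Cxcl12 had no count. The 5 stromal and endothelial markers summed to 149 and 165 against 243 and 212 CPM, nearly all of it Kdr, which rose (146 and 164 against 239 and 209 CPM, adjusted p = 0.0378), and Cdh5 was at 2.81 and 1.10 against 4.63 and 3.54 CPM (adjusted p = 0.418). In bulk libraries fewer cells of a type and less RNA per cell cannot be told apart, and the part of these markers in the adhesion results was not tested.

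Of the 35 genes, 25 had enough counts to be tested. In BFP-positive cells 7 of them rose (F11r, Itgb3, Itga5, Itgb7, Itgax, Jaml and Cd47) and 5 fell (Itgb5, Itgal, Pecam1, Tln1 and Cd44). Over all 11706 genes tested, 7.60% rose and 3.51% fell, 11.1% in all, at a Benjamini-Hochberg adjusted p of 0.05 over all genes in edgeR. Leaving aside Itgam, whose product was used in the sort, the 2 groups of libraries did not overlap for 19 of 24 genes, where 54.2% of all tested genes did so. The median log2 fold change of these 24 was 0.34, against -0.02 over all genes, and the median of its absolute size 0.70 against 0.36. As the 35 genes were chosen with earlier results of these data known, these comparisons are descriptions. Differences ran in both directions, also among chains that share a partner. The counts rested in part on single libraries. Without BFP-negative replicate 1 only 4 genes rose, as was the case when BFP-positive replicate 2 was left out. Leaving out the first or the second BFP-positive library gave 2 and 3 genes that fell. F11r, Itgb7, Jaml, Itgb5 and Itgal passed in each of the 4 fits that left out 1 library. Separate cultures or animals are not named for the replicates, so the tests measure the spread between these libraries. Same-numbered libraries share a title code, and the main tests ignore any pairing it may mark.

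**Figure D1:**
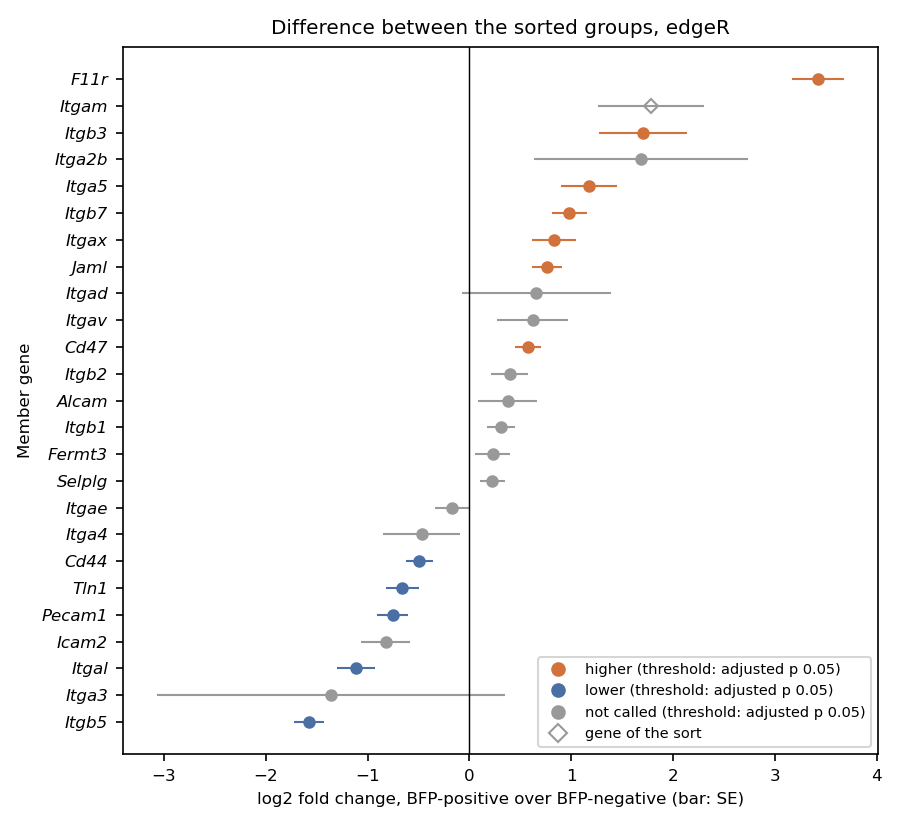
Log2 fold change of each of the 25 tested genes, BFP-positive over BFP-negative (x axis, bars are the standard error of the edgeR fit), ordered by size; the open diamond is Itgam, a gene of the sort. F11r stands at 3.43, beyond the other genes that rose, and Itgb5 at -1.58 is the lowest of those that fell.

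The sequence before the start site is shown for the gene that rose most, F11r, for Itga5, the alpha chain with the largest called rise, and for Itgb5, the gene that fell most among those called. RefSeq windows on GRCm38.p6 were found for 23 of the 35 genes. Stretches without annotated exons are printed 5′ to 3′ on the strand of the gene: chr1:171437319-171437534 (plus strand, 216 bases), chr15:103366792-103367041 (minus strand, 250 bases) and chr16:33829415-33829664 (plus strand, 250 bases). Capitals mark matches, on either strand, to an ETS core as bound by PU.1 (GAGGAA) or an E-box as bound by E proteins such as the pDC factor E2-2 (CAGNTG).
F11r: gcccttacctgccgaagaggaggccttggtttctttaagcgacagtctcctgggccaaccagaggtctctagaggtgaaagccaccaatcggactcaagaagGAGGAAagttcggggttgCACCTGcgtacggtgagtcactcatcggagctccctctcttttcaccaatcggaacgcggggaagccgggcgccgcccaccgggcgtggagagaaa
Itga5: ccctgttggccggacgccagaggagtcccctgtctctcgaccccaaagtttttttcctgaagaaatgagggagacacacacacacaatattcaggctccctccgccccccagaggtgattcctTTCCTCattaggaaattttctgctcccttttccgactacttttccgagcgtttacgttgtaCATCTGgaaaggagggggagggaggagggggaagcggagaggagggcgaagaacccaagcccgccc
Itgb5: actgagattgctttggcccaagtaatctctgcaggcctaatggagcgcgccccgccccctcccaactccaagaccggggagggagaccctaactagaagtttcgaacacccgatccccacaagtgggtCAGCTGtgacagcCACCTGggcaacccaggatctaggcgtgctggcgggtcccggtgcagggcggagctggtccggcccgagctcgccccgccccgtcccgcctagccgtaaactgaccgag
The F11r and Itga5 stretches hold 1 ETS core and 1 E-box each. The Itgb5 stretch holds 2 E-boxes, of which CAGCTG reads the same on both strands, and no ETS core. The windows of the other 4 genes that rose and had one, Itgax, Itgb7, Jaml and Cd47, held neither motif. Those of Itgax, Itgb7 and Cd47 include annotated exons of the same gene. The Itgb7 window, 102231936 to 102232185, lies inside the whole gene, which ends at 102233405. Both Cd47 windows also lie inside the gene, from 49855404 and 49855411 where the gene starts at 49851328. Only 3 of the 5 genes that fell had a window, and 2 of these, Cd44 and Tln1, held the ETS core. Of the 8 genes with a window that were tested but not called, 6 held the ETS core and 6 the E-box. Over the 32851 windows of the RefSeq table, the 250 bases before the start hold the ETS core in 23.3% and the E-box in 44.8%. Among the 26 windows of the 23 genes, 12 held the ETS core and 14 the E-box. Cd47, Itga3 and L1cam have 2 windows each. Those of Cd47 overlap each other, as do those of L1cam, which hold the same matches, so the windows are not independent. The Itga9 window, with 4 E-box matches, lies inside its gene. Matches of both motifs could share bases, and a match is only a match of letters.

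The alpha chains that pair with Itgb2 moved apart. Itgal, the alpha chain of LFA-1, which holds a dendritic cell to a T cell through ICAMs, was at 126 and 162 CPM in BFP-negative replicates 1 and 2 and at 74.8 and 58.8 CPM in BFP-positive replicates 1 and 2. Both BFP-positive values lay below both BFP-negative ones, and Itgal fell 2.16-fold (log2 difference -1.11 ± 0.19, adjusted p = 0.00423; here and below BFP-positive over BFP-negative, ± SE of the fit). Itgax, which encodes CD11c, the chain that conventional dendritic cells carry at high level and pDCs at a lower one, went the other way. Its levels were 66.4 and 108 CPM in BFP-negative and 145 and 165 CPM in BFP-positive cells. The BFP-negative libraries differed by more than the BFP-positive ones, and the groups did not overlap. Itgax rose 1.78-fold (log2 difference 0.83 ± 0.22, adjusted p = 0.0351), but the call was lost when BFP-negative replicate 1 was left out (log2 fold change 0.52, adjusted p = 0.0964), or in its place BFP-positive replicate 2 (0.73, adjusted p = 0.0864). Itgam, whose protein CD11b was used in the sort, had 22 and 52 counts in BFP-negative and 112 and 129 counts in BFP-positive libraries, or 1.77 and 4.10 against 9.61 and 10.6 CPM. Its fitted log2 difference was 1.78 ± 0.52, given as a description since the gate used its product. On GENCODE M21, 68.7% of the exonic bases of Itgam are shared with a second gene model on the same strand, Gm49368. Itgad, the CD11d chain of tissue macrophages, had 16 to 39 counts in a library and did not pass (log2 difference 0.66 ± 0.73). Some 19.7% of its exonic bases overlap other gene models, one of them Cox6a2 on the opposite strand, a pDC gene with 987 to 2528 counts in a library, and the libraries do not mark strand.

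Per gene length, the proportions within each library turned over. On the authors' RPKM scale (reads relative to gene length and to the library total), Itgal made up 58.4% and 52.2% of the summed Itgal, Itgax, Itgam and Itgad level in BFP-negative replicates 1 and 2, and 26.9% and 20.3% in BFP-positive replicates 1 and 2. The share of Itgax was 39.9% and 45.2% against 67.6% and 74.2%. Thus Itgal was the most abundant of the 4 in each BFP-negative library and Itgax in each BFP-positive one. The difference in level, Itgax minus Itgal on the log2 RPKM scale, was -0.55 and -0.21 against 1.33 and 1.87. Itgam stayed a small part, at 0.923% and 1.48% against 3.87% and 4.10%. Its share may depend on the CD11b gate and on how reads from exons shared with Gm49368 were counted, which is not stated. The summed level of these alpha chains was 42.8 and 60.0 RPKM in BFP-negative and 52.2 and 53.8 RPKM in BFP-positive libraries, so the groups overlapped in the sum. With 2 libraries against 2 no permutation test can reach 0.05, and the shares are given without a test.

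**Figure D2:**
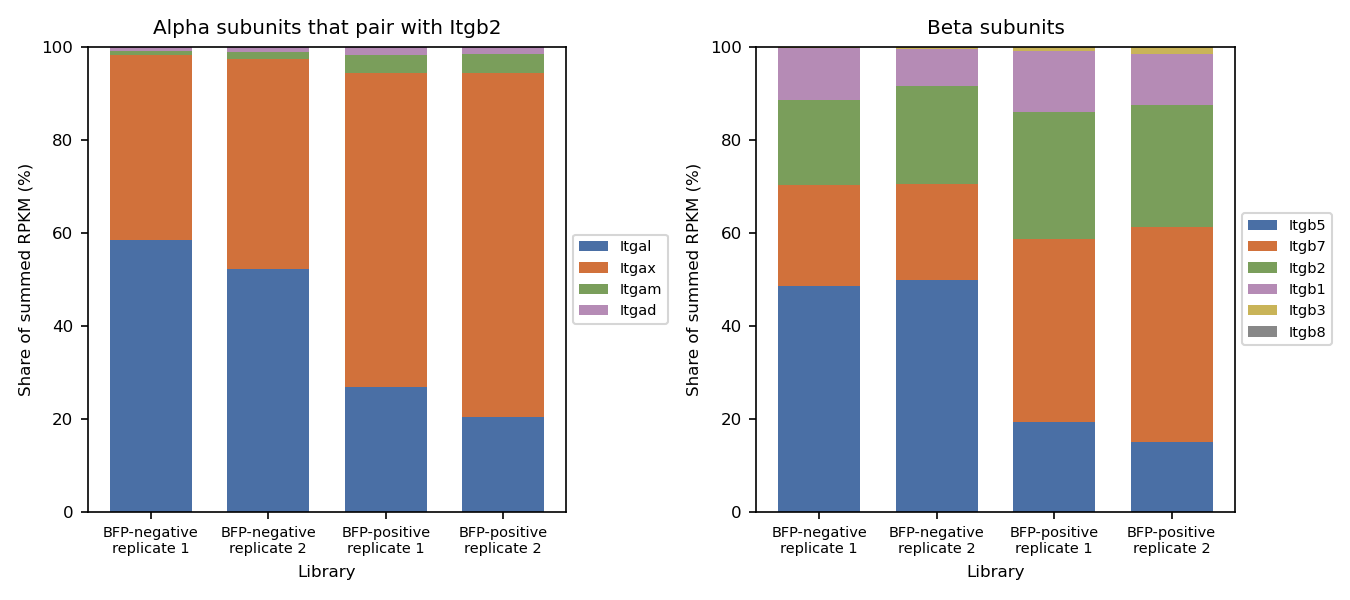
Share of the summed RPKM (y axis, percent) taken by each alpha chain that pairs with Itgb2 (left) and by each beta chain (right) in each of the 4 libraries (x axis). Itgal leads on the left and Itgb5 on the right in the BFP-negative libraries, whereas Itgax and Itgb7 lead in the BFP-positive ones. Itgam is a gene of the sort and shares exonic bases with Gm49368.

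Among the beta chains, Itgb5 fell and Itgb7 and Itgb3 rose, while Itgb1 and Itgb2 did not pass. Itgb5, whose protein pairs with alpha-v as a vitronectin receptor, was at 466 and 607 CPM in BFP-negative replicates 1 and 2 and at 186 and 174 CPM in BFP-positive replicates 1 and 2. All BFP-positive values were far below the BFP-negative ones, and Itgb5 fell 2.98-fold (log2 difference -1.58 ± 0.15, adjusted p = 0.000131). Itgb7 was at 171 and 206 CPM in BFP-negative and at 309 and 436 CPM in BFP-positive cells. The groups stood apart, with a wider spread in the BFP-positive pair, and the rise was 1.98-fold (log2 difference 0.98 ± 0.18, adjusted p = 0.00568). Itgb3, the chain shared by the vitronectin receptor alpha-v beta-3 and the platelet receptor for fibrinogen, was low, at 5.22 and 8.44 CPM against 13.9 and 30.8 CPM. It rose 3.27-fold (log2 difference 1.71 ± 0.43, adjusted p = 0.0311), which did not hold after leaving out BFP-negative replicate 1 (1.41, adjusted p = 0.0609), nor after leaving out BFP-positive replicate 2 (1.03, adjusted p = 0.280). The platelet genes Gp9 and Gp1bb had no count in any library, and Pf4 had 18 and 14 counts in the BFP-negative and none in the BFP-positive libraries. Itgb2 was at 152 and 225 CPM in BFP-negative and 231 and 266 CPM in BFP-positive cells (log2 difference 0.40 ± 0.18, adjusted p = 0.216), and it passed without BFP-negative replicate 2 (0.73, adjusted p = 0.00947). With the replicate number as a block Itgb2 also passed (adjusted p = 0.0303). Itgb1, the partner of most matrix-binding alpha chains, was at 136 and 124 against 162 and 161 CPM (log2 difference 0.31 ± 0.14, adjusted p = 0.205). Itgb8 had no count in any library.

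Per length, Itgb5 took 48.5% and 49.8% of the summed beta chain RPKM in the BFP-negative libraries and 19.3% and 15% in the BFP-positive ones. The share of Itgb7 went from 21.9% and 20.7% to 39.4% and 46.2%, and that of Itgb2 from 18.2% and 21.2% to 27.4% and 26.4%. In level, Itgb5 exceeded Itgb7 in each BFP-negative library by 1.15 and 1.27 on the log2 scale (differences of -1.15 and -1.27, Itgb7 minus Itgb5), and Itgb7 exceeded Itgb5 by 1.03 and 1.62 in the BFP-positive ones. Itgb7 and Itgb2 overlapped in level in BFP-negative cells (66.4 and 77.6 against 55.0 and 79.3 RPKM) and did not in BFP-positive cells (114 and 159 against 79.1 and 90.4 RPKM).

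The remaining alpha chains were mostly low, and 1 of the 6 tested passed. Itga5, which with Itgb1 forms the classic fibronectin receptor, was at 15.3 and 19.5 CPM in BFP-negative and at 31.1 and 47.5 CPM in BFP-positive cells. The groups did not overlap, and Itga5 rose 2.26-fold (log2 difference 1.18 ± 0.28, adjusted p = 0.0222). It failed to pass once BFP-negative replicate 1 was dropped (1.02, adjusted p = 0.0563), and likewise once BFP-positive replicate 2 was (0.84, adjusted p = 0.171). The known partners of Itgb7 did not pass. Itgae, the CD103 chain that binds E-cadherin, was at 80.4 and 87.6 CPM against 69.0 and 80.7 CPM, with overlapping groups (log2 difference -0.17 ± 0.17). Itga4, which also pairs with Itgb1 as a VCAM-1 receptor, was at 9.80 and 10.2 against 6.52 and 7.90 CPM and did not pass (log2 difference -0.47 ± 0.38). The summed Itgae and Itga4 level equalled 29.0% and 26.3% of that of Itgb7 per length in the BFP-negative libraries and 13.6% and 11.3% in the BFP-positive ones. Itgav, the partner of Itgb3, Itgb5 and Itgb8, was at 10.9 and 8.04 against 16.6 and 12.7 CPM (log2 difference 0.62 ± 0.35, adjusted p = 0.317). Per length Itgav, at 1.15 to 2.31 RPKM, was far below Itgb5, at 51.5 to 187 RPKM, in every library.

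Alpha chains near the limit of detection were uneven between replicates. Itga2b, the platelet alpha chain, had 3 and 22 counts in BFP-negative and 16 and 61 counts in BFP-positive replicates 1 and 2 (log2 difference 1.68 ± 1.05). Itga3, a laminin receptor chain, had none in either replicate 1 and 30 and 11 counts in BFP-negative and BFP-positive replicate 2. Itga9 had 2 and 12 counts in the same replicate 2 libraries and none in the others. Itga6, another laminin receptor chain, had none in BFP-negative cells and 7 and 16 counts in BFP-positive cells, too few to be tested. Itga1, Itga2, Itga7 and Itga8, chains of collagen, laminin and matrix receptors, had no count in any library. They were thus not detectable above a limit of 3 counts, 0.237 to 0.257 CPM.

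**Figure D3:**
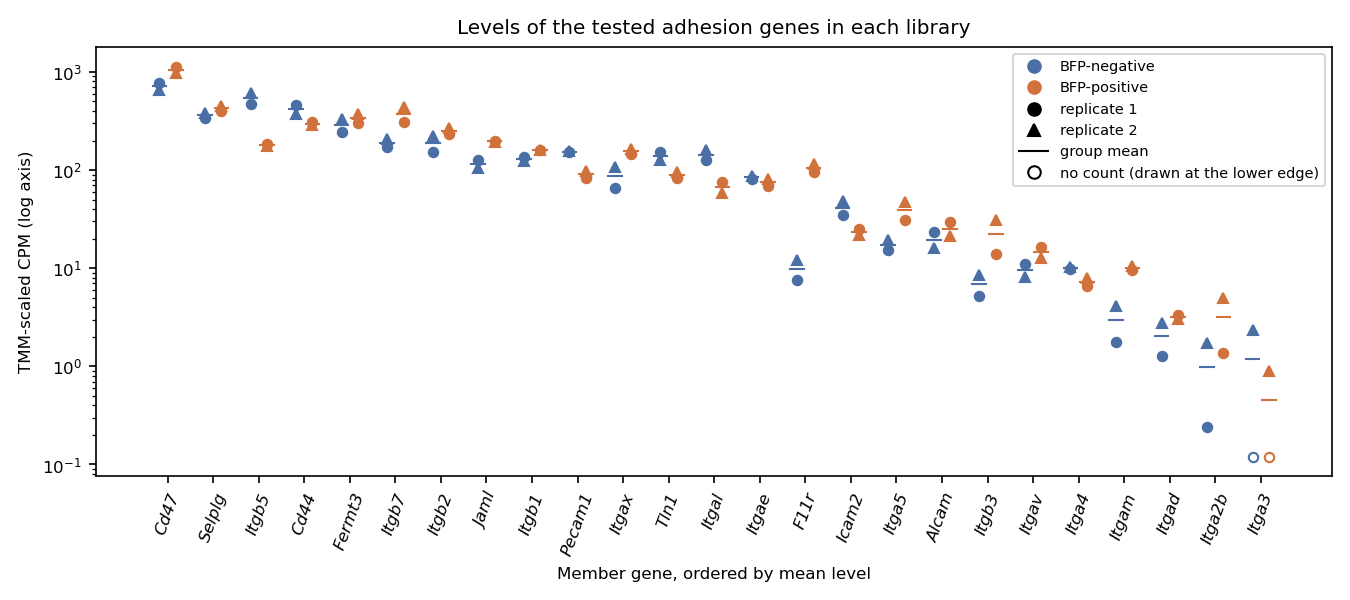
TMM-scaled CPM (y axis, log scale) of each of the 25 tested genes (x axis, ordered by mean level) in each library; colours are the groups, shapes the replicates, short lines the group means, and open symbols libraries without a count. Cd47 is the most abundant at 656 to 1136 CPM, and F11r shows the widest gap between groups among genes above 5 CPM.

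Among adhesion molecules of the immunoglobulin superfamily, F11r and Jaml rose and Pecam1 fell. F11r encodes JAM-A, a junction protein that leukocytes and dendritic cells use when they pass between endothelial cells and that binds LFA-1. It was at 7.55 and 12.1 CPM in BFP-negative replicates 1 and 2 and at 95.8 and 115 CPM in BFP-positive replicates 1 and 2. Every BFP-positive value was several times every BFP-negative one. F11r rose 10.7-fold (log2 difference 3.43 ± 0.25, adjusted p = 2.95e-05), and its log2 fold change ran from 3.13 to 3.82 when 1 library was left out. By RPKM it went from rank 18 to rank 9 of the 35 genes. Jaml, a related junction molecule of leukocytes, was at 126 and 106 CPM in BFP-negative and 200 and 193 CPM in BFP-positive cells. It rose 1.69-fold (log2 difference 0.76 ± 0.15, adjusted p = 0.00831). On the GENCODE annotation 12.8% of its exonic bases overlap a model on the opposite strand.

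Pecam1, the CD31 molecule that leukocytes and endothelium share, was at 153 and 155 CPM in BFP-negative and at 83.9 and 98.9 CPM in BFP-positive cells, with no overlap. It fell 1.68-fold (log2 difference -0.75 ± 0.15, adjusted p = 0.0108), and it did not pass without BFP-positive replicate 1 (-0.64, adjusted p = 0.0864). Icam2, a ligand of LFA-1, was at 34.8 and 48.2 against 25.3 and 21.6 CPM. The groups did not overlap, yet the test was not passed (log2 difference -0.82 ± 0.24, adjusted p = 0.0570), except without BFP-negative replicate 1 (-1.03, adjusted p = 0.0247), by library totals alone (adjusted p = 0.0394) or with the replicate number as a block (adjusted p = 0.0393). Alcam, whose protein binds CD6 on T cells, was at 23.1 and 15.9 against 29.3 and 21.5 CPM, with overlapping groups (log2 difference 0.38 ± 0.29). L1cam, best known from neurons, had 0 and 3 counts in BFP-negative and 3 and 119 counts in BFP-positive replicates 1 and 2, so that 1 library held nearly all of them. Vcam1, the endothelial ligand of Itga4 and Itgb1, had 11 counts in BFP-positive replicate 2 and none in the other libraries. Esam, an endothelial adhesion molecule also used as a conventional dendritic cell marker, had no count.

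The 3 abundant surface glycoproteins split as well. Cd47, the integrin-associated protein that signals to SIRP-alpha on phagocytes, was the most abundant of the 35 genes per length in both groups, at 379 ± 48.9 RPKM in BFP-negative and 539 ± 60.3 RPKM in BFP-positive cells (mean ± SD, n = 2). In CPM it was at 767 and 656 against 1136 and 979. The groups did not overlap, and Cd47 rose 1.49-fold (log2 difference 0.57 ± 0.13, adjusted p = 0.0176), which did not hold without BFP-positive replicate 1 (0.46, adjusted p = 0.135). Cd44, the hyaluronan receptor, was at 460 and 375 against 306 and 289 CPM. It fell 1.40-fold (log2 difference -0.49 ± 0.14, adjusted p = 0.0438), close to the threshold. Without BFP-negative replicate 1, or without BFP-positive replicate 1 or 2, it was not called (log2 fold changes -0.33, -0.53 and -0.45, adjusted p = 0.205, 0.118 and 0.218). Selplg, which encodes PSGL-1, the selectin ligand of rolling leukocytes, was at 343 and 383 against 404 and 446 CPM and did not pass (log2 difference 0.23 ± 0.12, adjusted p = 0.306).

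Of the cytoplasmic activators, the talin gene fell and the kindlin-3 gene did not pass. Tln1, the talin gene, was at 154 and 127 CPM in BFP-negative and at 83.5 and 94.8 CPM in BFP-positive cells. It fell 1.58-fold (log2 difference -0.66 ± 0.16, adjusted p = 0.0282). It was not called without BFP-negative replicate 1 (-0.51, adjusted p = 0.123), without BFP-positive replicate 1 (-0.57, adjusted p = 0.156) or without the other BFP-positive library (-0.75, adjusted p = 0.0558). Fermt3, the kindlin of blood cells, was at 243 and 332 against 300.2 and 374 CPM, with overlapping groups (log2 difference 0.23 ± 0.17, adjusted p = 0.466).

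Genes that act on or below integrins were taken from a list chosen with earlier results of these data known. Its comparison with all genes is therefore only a description. Of a list of 54 genes of integrin activation and of the adhesome, the protein layer under adhesion sites, 46 were tested, 12 rose and 1 fell, against 7.60% and 3.51% of all genes. The median log2 fold change of the tested genes was 0.29, against -0.02 over all genes. Fgr, a Src-family kinase that signals from beta-2 integrins in myeloid cells, was at 136 and 171 CPM in BFP-negative and 395 and 507 CPM in BFP-positive cells (log2 difference 1.55 ± 0.17, adjusted p = 0.000295). Vim, the intermediate filament vimentin, rose 5.62-fold, from 24.5 and 25.6 to 147 and 134 CPM. Cytip, which restrains LFA-1 adhesion of dendritic cells by binding cytohesin, rose 2.02-fold, from 165 and 158 to 312 and 338 CPM. Ilk, the integrin-linked kinase, rose 1.84-fold, and Dok1, an adaptor that competes with talin for the beta tail, 2.04-fold. The gene that fell, named after its values were seen, was Src, at 20.1 and 19.4 against 5.49 and 8.40 CPM (log2 difference -1.51 ± 0.35, adjusted p = 0.0202). It did not pass without BFP-positive replicate 1 (-1.23, adjusted p = 0.0858). The Rap1 switch, which recruits talin, did not pass. Rap1a was at 113 and 105 against 179 and 140 CPM (adjusted p = 0.0579), Rap1b at 179 and 192 against 219 and 220.1 CPM (adjusted p = 0.284), and their exchange factor Rasgrp2 at 75.5 and 71.2 against 75.3 and 71.9 CPM. The talin and kindlin genes of other tissues, Tln2, Fermt1 and Fermt2, had no count.

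Of a list of 44 integrin ligands and other adhesion genes, 43 were in the table and 18 were tested, of which 5 rose and 2 fell, where 7.60% and 3.51% of all genes did so. The median log2 fold change of these 18 was 0.59, against -0.02 over all genes. Earlier results of these data were known when this list was chosen, so the comparison is only a description. The list holds enzymes that decorate PSGL-1 for selectin binding. Fut7, a fucosyltransferase of that reaction, was at 15.5 and 19.0 CPM in BFP-negative and at 77.6 and 84.9 CPM in BFP-positive cells (log2 difference 2.24 ± 0.21, adjusted p = 0.000119). St3gal4, a sialyltransferase of the same ligands, was at 29.0 and 39.9 against 99.6 and 128 CPM (1.72 ± 0.21, adjusted p = 0.000635). Gcnt1, which builds the core of the same glycans, was at 10.3 and 9.94 against 18.4 and 16.5 CPM and did not pass (adjusted p = 0.146). Fut4, another fucosyltransferase, was at 24.2 and 24.3 against 20.3 and 29.1 CPM, and St3gal6, another sialyltransferase, at 18 and 13.5 against 14.2 and 12.6 CPM, with overlapping groups for both (adjusted p = 0.971 and 0.722). Spp1, which encodes osteopontin, a ligand of alpha-v integrins, rose 3.79-fold, from 15.4 and 14.0 to 67.4 and 44.4 CPM. Nectin2, a junction molecule, rose 2.82-fold. Cadm1, an adhesion molecule of cross-presenting dendritic cells, was at 27.2 and 30.7 against 14.6 and 13.1 CPM (log2 difference -1.06 ± 0.26, adjusted p = 0.0268). It was not called when BFP-negative replicate 2 or either BFP-positive library was left out (adjusted p = 0.0838, 0.0562 and 0.106). The other gene that fell, Cd6, a receptor of ALCAM, is named after its values were seen and was at 15.1 and 15.9 against 2.49 and 5.35 CPM (-1.98 ± 0.44, adjusted p = 0.0176). It did not pass without BFP-positive replicate 1 (-1.53, adjusted p = 0.0562). Icam1, the main LFA-1 ligand, was at 36.5 and 54.3 against 66.3 and 73.5 CPM, with no overlap, and did not pass (log2 difference 0.62 ± 0.22, adjusted p = 0.102). Sirpa, the receptor of CD47, was at 51.8 and 49.5 against 62.7 and 85.7 CPM (adjusted p = 0.111).

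**Figure D4:**
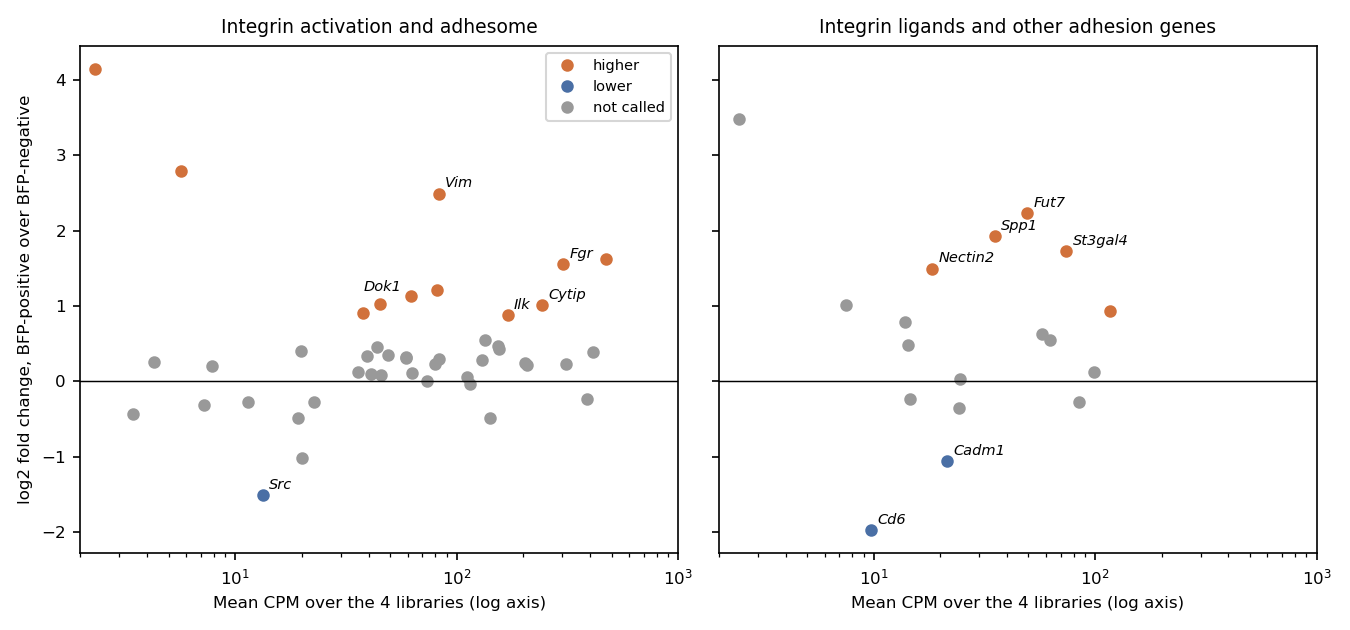
Log2 fold change, BFP-positive over BFP-negative (y axis), against mean CPM over the 4 libraries (x axis, log scale) for the tested genes of the integrin activation and adhesome list (left, without Dab2, which had no count in BFP-negative cells) and of the ligand and other adhesion gene list (right). Among the labelled genes, Vim, Fgr, Fut7, St3gal4 and Spp1 lie above 1.5, and Src, Cadm1 and Cd6 lie below -1.

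Positions of 10 of the 35 genes on GRCm38, as whole genes with introns, were as follows. F11r (Entrez gene 16456) lies on chromosome 1 from 171437561 to 171464593, Itgb5 (16419) on chromosome 16 from 33829665 to 33949338, and Itgb7 (16421) on chromosome 15 from 102215994 to 102233405. Itgal (16408), Itgam (16409), Itgax (16411) and Itgad (381924) all lie on the plus strand of chromosome 7, from 127296139 to 127335137, 128062640 to 128118491, 128129526 to 128150657 and 128173933 to 128205504. Itgal, which fell, is thus on the same chromosome as Itgax, which rose. Itga5 (16402) lies on chromosome 15 from 103344286 to 103366791, Itgb3 (16416) on chromosome 11 from 104608000 to 104670476, and Jaml (270152) on chromosome 9 from 45079153 to 45108531.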

How the data were processed

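RNA of 4 libraries, 2 per group, was sequenced after RNeasy purification and SMART-Seq v4 cDNA synthesis, per the labels' protocols; that kit amplifies by PCR and marks neither strand nor molecules. The authors deposited raw counts per Entrez gene, whole numbers without normalization, and log2 RPKM values per library, corrected for gene length and library total. Subread, featureCounts and limma with GRCm38 and mm10 are named, per the submitters' processing notes; versions, strand setting and the treatment of multi-mapping reads are not given in the sources used here. In the deposited log2 values, counts and totals implied the same gene length in all libraries (largest CV 0.0392% over 5694 genes with over 200 counts in every library) after a prior count of about 0.215.

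Counts were matched to samples by the name of each library's file. Genes were kept by filterByExpr (minimum count 10, minimum total 15; 11706 of 27179 genes), scaled with TMM (factors 0.973 to 1.04) and compared with edgeR 4.0.16 under R 4.3.3 in a model holding only the group. This left 2 residual degrees of freedom and gave a common biological CV of 24.7%. The tests were two-sided, with Benjamini-Hochberg adjustment over all genes tested; the threshold was 0.05. The SE of a log2 fold change is its size over the square root of F. Adjusted p-values are edgeR's throughout. Alternatives were RLE factors, library totals, no filter, DESeq2 1.42.0, limma-voom (limma 3.58.1), a replicate block and leaving out each library. All 35 genes are named; of both other lists, the 6 genes with the smallest p among those called with a mean of at least 10 CPM, of which 1 in each list is not reported here. The members and lists were chosen with earlier results of these data known. Positions and upstream sequence are RefSeq's on GRCm38.p6, matched by Entrez identifier, and exon overlaps are GENCODE M21's.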

Additional observations from a re-analysis of the deposited data

How the results depend on the processing

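No value of the 25 tested adhesion genes changed direction under any of the 10 alternatives, with 249 values in all, since Itga3 was too low to be tested in 1 of them. All 12 called genes kept their call under the 6 alternatives that used all libraries, and 5 of them in each of the 4 fits that left out 1 library, where the lone library of a group is assumed to vary like the others. Leaving out 1 library gave 4 to 10 adhesion genes that rose and 2 to 5 that fell, against 559 to 921 and 245 to 408 of all genes. It gave 9 to 12 and 0 to 2 genes of the integrin activation and adhesome list, and 5 to 7 and 0 to 2 of the ligand list. The counts of 0 came without BFP-positive replicate 1 in edgeR, where 2 genes of each list were lower at an unadjusted p of 0.05. The adhesome list had 2 lower genes by library totals and by DESeq2. With the replicate block it had 3, and of all genes 1140 were higher and 760 lower; the cause was not tested. The titles give same-numbered libraries a shared code, whose meaning is not stated. Their deviations from the group means correlated at 0.06 across genes. Pooled over all tested genes, this value cannot exclude a pairing. The main model took the libraries as unpaired. Under the block Itgb2 (adjusted p = 0.0303) and Icam2 (adjusted p = 0.0393) passed. Itgam, a gene of the sort, is not judged by a test. With 2 libraries a group, differences of genes under about 10 CPM were poorly resolved, as the SE of Itga2b and Itgad shows.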
